A study of Mus musculus with 18 samples.

Results

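The effect of AOS in mice on a high-fat diet was described by setting testes labelled HFD-AOS, from mice given the diet and AOS at 10 mg/kg, against testes labelled HFD, from mice on the diet alone. Each group had 3 libraries, so 6 of the 18 libraries of the series entered the comparison itself, and 13105 of 20979 genes, those averaging 1 FPKM or more over all 18, were tested. FPKM is the level of a gene scaled to transcript length and to the size of the library. All animals were ICR mice, an outbred stock, sampled at 10 weeks of age, and RNA was taken from whole frozen testis. The other groups used here were HFD-AOSFMT (the diet, with FMT labelled AOS at 10 mg/kg), HFD-conFMT (the diet, with FMT labelled control), AOS without the diet, and untreated control, again with 3 libraries each. AOS and FMT are named as labelled, since the labels do not spell them out, and the length of diet and treatment is not given in the labels. Nothing in the labels ties a replicate to its own animal, so the tests see only the scatter among these libraries, which could be technical in part. The series asked about FMT and the testis on this diet, and the comparison here addresses AOS given directly.

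The testis makes sperm and testosterone. Sperm form in the seminiferous tubules, where germ cells pass from spermatogonia through meiotic spermatocytes to round and elongating spermatids, held by Sertoli cells. Testosterone is made between the tubules by Leydig cells, which import cholesterol into mitochondria through the carrier StAR and convert it with steroidogenic enzymes. Cholesterol itself is taken up or made in the cell by a chain of enzymes, whose genes are switched on by the transcription factor SREBP when sterols run low. Germ cells, Sertoli cells and Leydig cells all carry out parts of this synthesis. In bulk tissue of this kind, fewer cells of a type and less RNA per cell cannot be told apart.

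Values summed to 588080.8 to 637004.9 FPKM over the 18 libraries and 12996 to 13221 genes reached 1 FPKM in each. How many reads lie behind them is unknown, which leaves counting error without an interval. The median absolute log2 difference between an HFD-AOS and an HFD library was 0.0869 to 0.149, against 0.0785 to 0.137 between libraries of the same group. Libraries HFD-AOS 1 and HFD 2 lay farthest from all others, with a median distance of 0.138 and 0.121, and most list counts are also given without them. Summed markers of Leydig, Sertoli and elongating spermatid cells, which define testis, came to at least 3470, 2170 and 66700 FPKM in each of the 6 libraries. The epididymal marker Crisp1 was at 0.1, 0.1 and 0.05 FPKM in HFD-AOS, against 0.4, 0.21 and 0.2 in HFD, and thus below 1 FPKM in all 6. The 26 epididymis and accessory gland genes in the table summed to 342 to 349 FPKM in HFD-AOS and 308 to 360 FPKM in HFD. Of them 19 were under 1 FPKM in all 6 libraries, so the sum rested on the other members, and Crisp1 does not stand for those.

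No gene passed the threshold between HFD-AOS and HFD. With limma on log2(FPKM + 1) and Benjamini-Hochberg adjustment over all genes, 0 of 13105 genes (0.0%) had an adjusted p under 0.05, and the lowest adjusted p was 0.159. Without HFD-AOS 3 there were 4, all higher (Tmem89, Spata9, Fancd2os and Tex38), and without HFD-AOS 1 there was 1, the predicted gene Gm20929, which was lower. In all, 1664 genes (12.7%) had an unadjusted p under 0.05, 641 higher in HFD-AOS (4.89%) and 1023 lower (7.81%). These shares are the background for each gene list in this fit. Under alternatives the background moved too. It was 3.37% higher and 4.08% lower without HFD 2, and 3.79% and 3.92% without both HFD-AOS 1 and HFD 2. Values of the 3 and 3 libraries did not overlap for 642 genes higher in HFD-AOS (4.9%) and 1113 lower (8.49%). Differences were small: the median absolute log2 fold change was 0.075, and 63 genes were higher (0.481%) and 75 lower (0.572%) by 0.5 or more on the log2 scale. More genes lay below HFD than above it, 56.1% against 43.9%, with a median log2 fold change of -0.017. That lean depended on scaling, since 846 genes were higher and 725 lower at an unadjusted p under 0.05 after each library was rescaled to a common median log ratio. Without HFD-AOS 1 and HFD 2 the counts were 497 higher and 514 lower. Fold changes are differences of log2(FPKM + 1), so those of low genes come out too small, and no gene passed the adjusted threshold in this comparison.

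The 10 genes of smallest p above HFD without overlap included genes of spermatids, protease control and the cytoskeleton. Tmem89, a membrane protein gene of testis, was at 85.7, 83.8 and 70.8 FPKM in HFD-AOS, against 64.5, 62.8 and 61 in HFD (log2 fold change 0.34, SE 0.059, limma adjusted p = 0.159). All 3 HFD-AOS libraries lay above all 3 HFD libraries, with HFD-AOS 3 nearest to them. Spink4, a serine protease inhibitor gene, had the largest fold change of the 10, at 18.2, 12.1 and 15.6 FPKM in HFD-AOS, against 8.68, 6.5 and 3.79 in HFD (log2 fold change 1.20, SE 0.27, limma adjusted p = 0.215). The HFD-AOS values began well above the highest HFD value. The small actin-binding peptide gene Tmsb10, thymosin beta 10, was at 3169, 2358 and 2708 FPKM in HFD-AOS, against 2125, 1788 and 1916 in HFD (log2 fold change 0.49, SE 0.095, limma adjusted p = 0.159). Tmem190, a membrane protein gene of testis and sperm, was at 168, 155 and 148 FPKM in HFD-AOS, against 132, 134 and 123 in HFD (log2 fold change 0.28, SE 0.051, limma adjusted p = 0.159). Both had no overlap, and the lowest HFD-AOS library differed between them. Saxo2, a microtubule-stabilising protein gene, was at 10.8, 12.3 and 11.9 FPKM in HFD-AOS, against 9.21, 8.62 and 9.59 in HFD. Taf10, a subunit of the general transcription factor TFIID, was at 141, 124 and 131 FPKM in HFD-AOS, against 117, 103 and 113 in HFD. The other genes above HFD were Pfdn1 (prefoldin, a chaperone subunit), Ubald2, Mrps15 (a mitochondrial ribosomal protein) and Dgcr6, with log2 fold changes of 0.20, 0.46, 0.28 and 0.20.

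**Figure D1:**
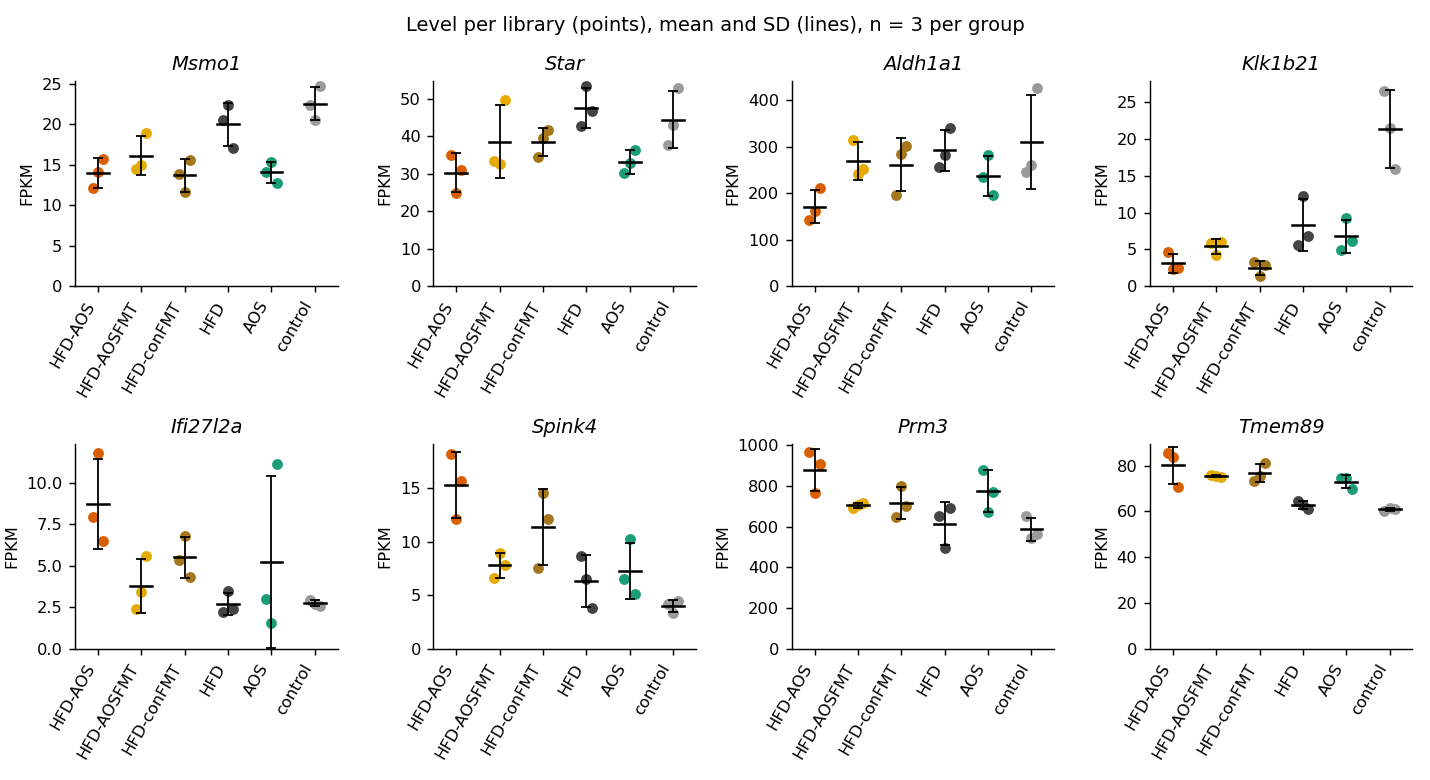
Level in FPKM (vertical axes, from 0) of 8 genes in all 18 libraries, by group; points are libraries, lines the mean and SD of 3. In each panel the 3 HFD-AOS points lie all above or all below the 3 HFD points, as for Star at 35, 24.8 and 31.1 FPKM in HFD-AOS, against 42.6, 53.3 and 46.8 in HFD.

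Below HFD the genes of smallest p came from several processes. Hfm1, a DNA helicase gene needed for crossing over in meiosis, was at 5.1, 4.8 and 4.57 FPKM in HFD-AOS, against 6.19, 6.31 and 6.1 in HFD (log2 fold change -0.31, SE 0.055, limma adjusted p = 0.159). Abcc12, an ABC transporter gene expressed in testis, was at 34.6, 37.6 and 36.3 FPKM in HFD-AOS, against 41.9, 41.5 and 42 in HFD (log2 fold change -0.20, SE 0.036, limma adjusted p = 0.159). Both groups were tight, and the gap between them was larger than the range within either. Stt3b, a catalytic subunit of the oligosaccharyltransferase that puts sugars on proteins, was at 150.3, 152 and 149.8 FPKM in HFD-AOS, against 173, 200.1 and 170.0 in HFD (log2 fold change -0.26, SE 0.049, limma adjusted p = 0.159). Here HFD 2 stood above the other 2 HFD libraries. Lower by smaller amounts were Sprtn (a protease that removes DNA-protein crosslinks, log2 fold change -0.22), Naa15 (N-terminal acetylation, -0.19), Usp44 (a deubiquitinase, -0.16), Ltn1 (ribosome quality control, -0.18), Sdcbp (syntenin, -0.23) and Dis3l (RNA exosome, -0.16). The last of the 10 was the sterol reductase gene Tm7sf2.

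Genes for the enzymes of cholesterol synthesis were lower together. Of 22 enzyme genes tested, 20 had a log2 fold change below 0 and 13 had an unadjusted p under 0.05 in that direction, beside 7.81% of all genes tested, while 0 had one above. For 11 of the 22, all lower, the groups did not overlap, beside 8.49% of all genes. The median log2 fold change was -0.23, against -0.017 over all genes. Summed over the 22, the level was 416.7, 419.7 and 430.6 FPKM in HFD-AOS, against 469.4, 480.5 and 439.4 in HFD. It was 431.7, 431.9 and 433.6 FPKM in HFD-conFMT, below every HFD library and above every HFD-AOS library. In HFD-AOSFMT it was 428.8, 432.0 and 454.3 FPKM. A lower level than HFD was thus not particular to direct AOS. This list was chosen with earlier results of these data known, so its count describes these libraries and is no independent support.

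Promoters of 3 of these enzyme genes are shown because the enzyme list had the largest share of members at a low p, together with that of the interferon-induced Bst2 for contrast. Each runs from 250 bases before to 50 after the annotated start (RefSeq, GRCm38.p6), on the strand of the gene. Capitals in the first 3 mark the sterol regulatory element core TCACNCCA, where N is any base, and the CCAAT box, CCAAT, each searched on both strands. In Bst2 they mark GAAANNGAA, a core of the interferon-stimulated response element, again on both strands.
Hmgcs1, chr13:119690101-119690400, plus strand: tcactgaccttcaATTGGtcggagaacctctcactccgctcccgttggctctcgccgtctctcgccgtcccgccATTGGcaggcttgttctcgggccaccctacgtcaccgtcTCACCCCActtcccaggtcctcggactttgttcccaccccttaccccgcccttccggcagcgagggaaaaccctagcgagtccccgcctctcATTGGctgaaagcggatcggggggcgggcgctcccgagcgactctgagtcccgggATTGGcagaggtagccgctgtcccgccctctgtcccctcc
Msmo1, chr8:64733529-64733828, minus strand: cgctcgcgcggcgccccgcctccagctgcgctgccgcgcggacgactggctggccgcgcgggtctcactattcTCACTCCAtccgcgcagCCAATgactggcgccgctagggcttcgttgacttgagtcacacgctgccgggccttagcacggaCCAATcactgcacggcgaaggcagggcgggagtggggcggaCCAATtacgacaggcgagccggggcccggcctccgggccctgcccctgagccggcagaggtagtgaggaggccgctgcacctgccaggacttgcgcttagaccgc
Tm7sf2, chr19:6067801-6068100, minus strand: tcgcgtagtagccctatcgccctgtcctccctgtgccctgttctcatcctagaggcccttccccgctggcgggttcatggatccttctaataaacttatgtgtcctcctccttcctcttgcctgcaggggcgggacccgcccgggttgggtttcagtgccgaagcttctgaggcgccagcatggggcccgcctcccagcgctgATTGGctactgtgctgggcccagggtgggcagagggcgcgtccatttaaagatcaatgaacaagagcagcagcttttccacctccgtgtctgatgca
Bst2, chr8:71537423-71537722, minus strand: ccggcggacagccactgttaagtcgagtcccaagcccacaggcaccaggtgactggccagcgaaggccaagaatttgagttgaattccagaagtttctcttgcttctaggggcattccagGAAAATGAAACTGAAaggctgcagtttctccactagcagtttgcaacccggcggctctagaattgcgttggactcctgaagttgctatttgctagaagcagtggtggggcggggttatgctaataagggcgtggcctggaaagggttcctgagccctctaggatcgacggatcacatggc
The window of Hmgcs1 held 1 sterol element core and 4 CCAAT boxes, that of Msmo1 1 and 3, and that of Tm7sf2 0 and 1. Bst2 held 2 overlapping matches to its motif. Over all 32851 promoters of the table, 4.36% held TCACNCCA, 37.4% held CCAAT and 8.56% held GAAANNGAA on either strand. Among the 22 enzyme genes, 17 had a promoter in the table, with 20 promoters in all. Of these 20 promoters, 2 held the sterol element core (10.0%) and 16 held a CCAAT box (80.0%). The 21 interferon response genes with a promoter had 29 promoters, of which 9 held GAAANNGAA (31.0%). A match is a description of letters and shows no binding.

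At the head of the pathway, Hmgcs1, which makes HMG-CoA, was at 24.6, 27.6 and 27.3 FPKM in HFD-AOS, against 31.6, 33.6 and 29 in HFD (log2 fold change -0.24, SE 0.069, limma adjusted p = 0.236). The groups were apart, with HFD 3 the lowest HFD library. Mvd, which makes isopentenyl diphosphate, was at 1.66, 2.07 and 2.06 FPKM in HFD-AOS, against 2.34, 2.47 and 2.53 in HFD. Among the enzymes that close and trim the sterol ring, Lss, lanosterol synthase, was at 2.71, 2.77 and 2.95 FPKM in HFD-AOS, against 3.73, 3.58 and 3.32 in HFD (log2 fold change -0.25, SE 0.078, limma adjusted p = 0.245). Msmo1, which removes methyl groups, was at 12.1, 14.1 and 15.8 FPKM in HFD-AOS, against 20.5, 22.4 and 17.2 in HFD (log2 fold change -0.49, SE 0.13, limma adjusted p = 0.215) and had the lowest log2 fold change of the list. No HFD-AOS value of Lss or Msmo1 reached the lowest HFD value. Nsdhl, which acts with Msmo1, was at 13.3, 11.8 and 12.1 FPKM in HFD-AOS, against 14.7, 14.9 and 14.2 in HFD. Hsd17b7, the next reductase, was near the filter at 0.82, 1.24 and 1.15 FPKM in HFD-AOS, against 1.66, 1.76 and 1.51 in HFD. Tm7sf2, which reduces the C14 double bond, was at 2.67, 3.62 and 3.07 FPKM in HFD-AOS, against 4.46, 5.02 and 3.98 in HFD (log2 fold change -0.42, SE 0.089, limma adjusted p = 0.215). Here too the groups were apart, HFD-AOS 1 being the lowest library of the 6.

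The last steps were lower too. Sc5d was at 6.19, 4.2 and 6.19 FPKM in HFD-AOS, against 7.83, 7.02 and 7.25 in HFD, with HFD-AOS 2 lowest. Dhcr7, whose loss causes Smith-Lemli-Opitz syndrome in humans, was at 7.64, 7.62 and 8.46 FPKM in HFD-AOS, against 11.8, 9.24 and 9.15 in HFD. Only 2 enzyme genes lay above HFD. Pmvk, phosphomevalonate kinase, was at 10.8, 8.96 and 9.61 FPKM in HFD-AOS, against 9.35, 9.11 and 7.32 in HFD. Fdft1, squalene synthase and the most abundant enzyme of the list, was at 134, 136 and 130.3 FPKM in HFD-AOS, against 133, 131 and 131 in HFD. Groups overlapped in both. Without HFD-AOS 1 and HFD 2, 7 of the 22 had an unadjusted p under 0.05, 18 were lower and the median was -0.15, while leaving out any single library gave 9 to 16. With the trend on transcript length and GC content removed, 12 of 22 were lower at that p and the median was -0.17.

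**Figure D2:**
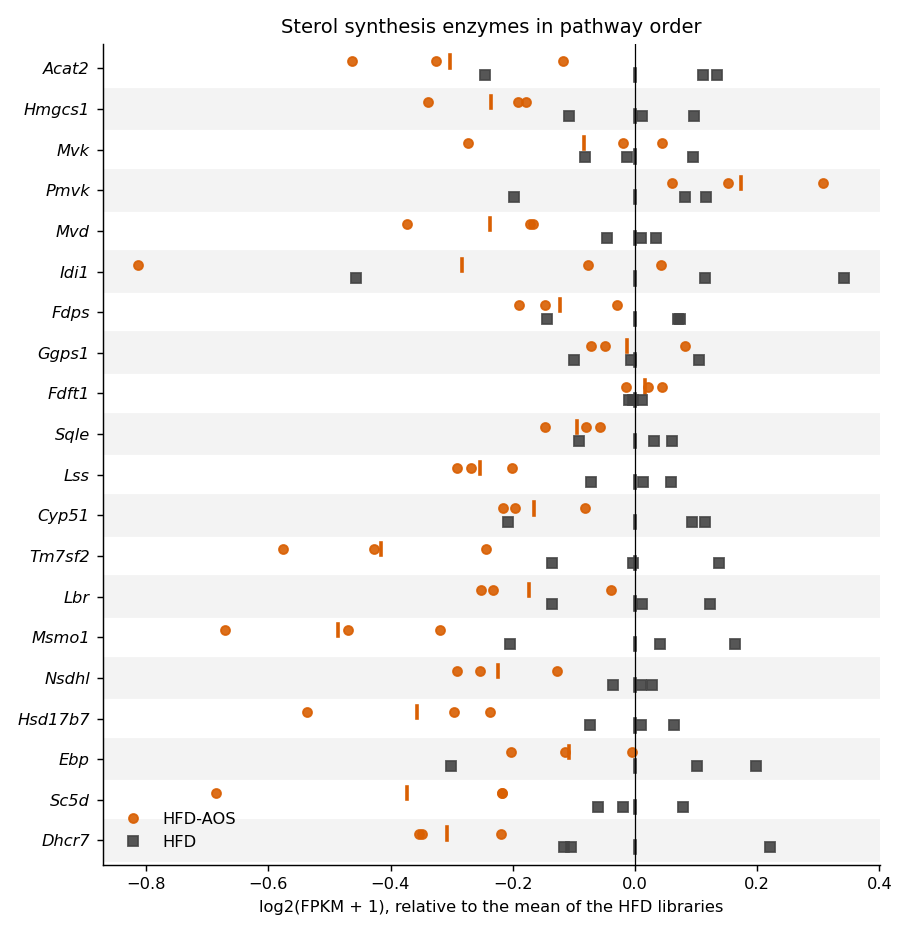
Level of each of 20 sterol synthesis enzyme genes (rows, in pathway order) in the 3 HFD-AOS libraries (circles, upper) and the 3 HFD libraries (squares, lower), as log2(FPKM + 1) minus the HFD mean; ticks are group means. In 18 of 20 rows the HFD-AOS mean lies left of 0, and in 9 rows no circle reaches a square.

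Genes that sense and move sterols were less uniform. Of 22 tested, 14 had a log2 fold change below 0, and the median was -0.054. At an unadjusted p under 0.05, 2 were higher and 2 lower, beside 4.89% and 7.81% of all genes. Insig1, a target of SREBP that holds it back in the endoplasmic reticulum, was at 3.79, 5.43 and 5.34 FPKM in HFD-AOS, against 6.79, 5.8 and 6.32 in HFD (log2 fold change -0.33, SE 0.11, limma adjusted p = 0.286). Stard4, a cytosolic cholesterol carrier and also an SREBP target, was at 2.03, 1.79 and 1.91 FPKM in HFD-AOS, against 2.34, 2.68 and 2.59 in HFD (log2 fold change -0.28, SE 0.082, limma adjusted p = 0.236). Both were lower in every HFD-AOS library than in any HFD library. The transcription factor genes themselves overlapped between the groups: Srebf2 was at 7.02, 6.67 and 7.84 FPKM in HFD-AOS, against 7.74, 6.74 and 6.57 in HFD, and Srebf1 was at 2.44, 2.76 and 3.22 FPKM in HFD-AOS, against 3.15, 3.35 and 2.59 in HFD. The 2 genes higher at an unadjusted p under 0.05 were Abca1 and Apoe, and cholesterol export was not examined as a set. Abca1, the transporter that passes cholesterol to apolipoproteins, was at 4.85, 6.09 and 5.11 FPKM in HFD-AOS, against 4.22, 4.67 and 3.44 in HFD (log2 fold change 0.32, SE 0.12, limma adjusted p = 0.31). Apoe, an apolipoprotein, was at 119, 89.4 and 112 FPKM in HFD-AOS, against 89.1, 76.9 and 80.6 in HFD (log2 fold change 0.36, SE 0.14, limma adjusted p = 0.316). Neither overlapped, although the lowest HFD-AOS library of Apoe came close to the highest HFD library.

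Fatty acid genes leaned the same way as the sterol enzymes. In the list for synthesis, elongation and desaturation, 25 of 27 genes tested were lower, 8 with an unadjusted p under 0.05 and 1 higher with one, and the median log2 fold change was -0.1. The shares over all genes at that p were 7.81% lower and 4.89% higher. Fads1, the delta-5 desaturase, was at 21.5, 20.7 and 24.9 FPKM in HFD-AOS, against 27.1, 27.9 and 33.2 in HFD (log2 fold change -0.38, SE 0.13, limma adjusted p = 0.278). Fads2, the delta-6 desaturase, was at 69.4, 63.1 and 74.9 FPKM in HFD-AOS, against 87.8, 79.1 and 91.9 in HFD (log2 fold change -0.32, SE 0.11, limma adjusted p = 0.301). Both had no overlap, and HFD 3 was the highest library in each. Acly, which supplies acetyl-CoA from citrate, was at 13.1, 12.8 and 13.9 FPKM in HFD-AOS, against 15.7, 15.9 and 15.8 in HFD. Me1, malic enzyme, a source of NADPH, was at 141, 149 and 146 FPKM in HFD-AOS, against 163, 161 and 159 in HFD. Elovl2, the elongase of very long polyunsaturated chains, which mouse spermatogenesis needs, was at 74, 74 and 71.5 FPKM in HFD-AOS, against 77.6, 85.7 and 79.3 in HFD. Dgat1, which makes triglyceride, was at 29.1, 33.5 and 35.7 FPKM in HFD-AOS, against 35.7, 37 and 37.7 in HFD, the highest HFD-AOS value lying within rounding of the lowest HFD value. The exception was Tecr, the last reductase of elongation, at 68.8, 53.4 and 60.2 FPKM in HFD-AOS, against 53.2, 46.5 and 52.5 in HFD. Fasn, fatty acid synthase, overlapped at 8.46, 7.97 and 8.2 FPKM in HFD-AOS, against 8.44, 9.01 and 8.27 in HFD. The count of 8 was 5 without HFD-AOS 1, and 3 without both HFD-AOS 1 and HFD 2.

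For fatty acid uptake and oxidation, 6 of 33 genes were lower and 0 higher at an unadjusted p under 0.05, beside 7.81% and 4.89% of all genes. The list median was -0.056. Hadhb, a subunit of the mitochondrial trifunctional protein, was at 40.8, 47.5 and 46.3 FPKM in HFD-AOS, against 51.8, 55.9 and 48.2 in HFD. The count of 6 was 2 without HFD-AOS 1 or without HFD 2, and 0 without both.

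Of the Leydig cell and steroidogenesis genes, the cholesterol carrier and the prolactin receptor differed at an unadjusted p under 0.05. Star, which carries cholesterol into the mitochondrion and sets the rate of steroid synthesis, was at 35, 24.8 and 31.1 FPKM in HFD-AOS, against 42.6, 53.3 and 46.8 in HFD (log2 fold change -0.64, SE 0.16, limma adjusted p = 0.215). The highest HFD-AOS value was below the lowest HFD value, and HFD-AOS 2 was the lowest of the 6. Prlr, the prolactin receptor, was at 3.63, 3.41 and 3.7 FPKM in HFD-AOS, against 3.89, 4.61 and 4.51 in HFD. These were the 2 of 23 genes with an unadjusted p under 0.05, both lower, beside 7.81% of all genes. That count of 2 was 5 without HFD-AOS 3 and 3 without HFD-AOS 1. It was 1 without HFD-AOS 2, without HFD 2, with array weights or with length and GC removed. The list median of -0.11 turned to 0.051 without HFD-AOS 1 and HFD 2. The side-chain cleavage enzyme Cyp11a1 was at 97.1, 104 and 108 FPKM in HFD-AOS, against 125, 110.1 and 107 in HFD, and the 17-alpha-hydroxylase Cyp17a1 was at 281, 248 and 271 FPKM in HFD-AOS, against 329, 279 and 274 in HFD, each with overlapping groups. Hsd3b1, which makes progesterone from pregnenolone, lay the other way at 109.8, 102 and 109 FPKM in HFD-AOS, against 91.9, 99.9 and 79.2 in HFD, without overlap (log2 fold change 0.25, SE 0.18). Insl3, the Leydig cell hormone, had its highest value in library 1 of both groups, at 4367, 2319.6 and 2282 FPKM in HFD-AOS, against 3964, 2517 and 2923 in HFD. The summed level of 25 Leydig genes was 3470 to 5510 FPKM in HFD-AOS and 3750 to 5290 FPKM in HFD, so the marker sum overlapped where Star did not. Insl3 made up most of that sum in each of the 6 libraries, so the sum says little about the other markers.

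A retinoid enzyme gene and 3 kallikreins were among those below HFD. Aldh1a1, a retinaldehyde dehydrogenase that makes retinoic acid, was at 142, 162 and 211 FPKM in HFD-AOS, against 256, 282 and 341 in HFD (log2 fold change -0.78, SE 0.22, limma adjusted p = 0.222). The highest HFD-AOS value was far below the lowest HFD value. Of 22 retinoid genes tested, 1 was higher (Rbp4, the plasma retinol carrier, at 4.89, 3.4 and 3.32 FPKM in HFD-AOS, against 2.52, 2.63 and 3.37 in HFD) and 1 lower at an unadjusted p under 0.05, with a median of -0.038. Over all genes 4.89% were higher and 7.81% lower at that p, so the retinoid counts lay near the background. The kallikreins Klk1b21, Klk1b24 and Klk1b27, serine proteases with near-identical copies among which reads may be split, were also low. Klk1b21 was at 4.59, 2.31 and 2.41 FPKM in HFD-AOS, against 5.64, 12.3 and 6.88 in HFD (log2 fold change -1.15, SE 0.29, limma adjusted p = 0.215), and Klk1b24 at 5, 1.88 and 3.21 FPKM in HFD-AOS, against 6.62, 13.2 and 6.93 in HFD (log2 fold change -1.19, SE 0.31, limma adjusted p = 0.215). HFD 2 was the highest library for all 3 genes. They were the 3 of 10 tested kallikreins with an unadjusted p under 0.05. Untreated testes stood higher still, with 26.5, 21.6 and 16 FPKM of Klk1b21 in control.

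Some interferon-induced genes were at more than the HFD level in HFD-AOS. Of the 64 genes listed 62 were in the table and 25 reached the filter, and of these 5 were higher and 2 lower at an unadjusted p under 0.05, beside 4.89% and 7.81% of all genes. Ifi27l2a, an interferon-induced mitochondrial protein gene, was at 7.95, 11.8 and 6.48 FPKM in HFD-AOS, against 2.24, 3.49 and 2.41 in HFD (log2 fold change 1.37, SE 0.4, limma adjusted p = 0.236). Ifi27, its neighbour and relative, was at 16.3, 19.8 and 15.2 FPKM in HFD-AOS, against 13.8, 14.1 and 8.74 in HFD (log2 fold change 0.47, SE 0.16, limma adjusted p = 0.278). Bst2, tetherin, which holds budding viruses on the cell surface, was at 5.94, 8.68 and 7.84 FPKM in HFD-AOS, against 5.83, 4.45 and 3.15 in HFD (log2 fold change 0.65, SE 0.24, limma adjusted p = 0.31). Lgals3bp, a secreted scavenger protein gene, was at 10.4, 9.51 and 9.41 FPKM in HFD-AOS, against 6.49, 6.28 and 6.05 in HFD (log2 fold change 0.56, SE 0.22, limma adjusted p = 0.325). Irf7, the transcription factor that amplifies the interferon response, was at 3.28, 2.97 and 1.35 FPKM in HFD-AOS, against 1.08, 0.87 and 0.99 in HFD (log2 fold change 0.79, SE 0.36, limma adjusted p = 0.383). None of these 5 overlapped between the groups, though Bst2 came close to it. Another 3 genes of the list were lower without overlap. Over all genes 4.9% were higher and 8.49% lower without overlap. Of the 25, 15 had a log2 fold change above 0 and 10 below, so the list did not move as a whole. The list median was 0.046. Single libraries also reached such levels elsewhere, AOS 3 having 11.1 FPKM of Ifi27l2a where the other AOS libraries had 3.01 and 1.54. The count of 5 was 3 without HFD-AOS 1 or without both HFD-AOS 1 and HFD 2, and 1 without HFD 3.

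Macrophage markers lay beside these. Of 22 macrophage and leukocyte genes tested, 3 were higher and 0 lower at an unadjusted p under 0.05, beside 4.89% and 7.81% of all genes. C1qb was at 19.1, 14.5 and 14.6 FPKM in HFD-AOS, against 12.9, 13.1 and 11.3 in HFD and C1qc at 6.69, 6.27 and 7.55 FPKM in HFD-AOS, against 5.6, 5.61 and 6.03 in HFD, both chains of complement C1q, which testicular macrophages make. Tyrobp, a myeloid signalling adaptor, was at 6.09, 3.39 and 3.47 FPKM in HFD-AOS, against 2.59, 3.39 and 3.2 in HFD, where HFD-AOS 1 stood far above the other 5. The summed level of all 39 macrophage and leukocyte genes in the table was 451 to 486 FPKM in HFD-AOS and 432 to 475 FPKM in HFD, and 2 of them, S100a8 and S100a9, which mark neutrophils, were at 0 in all 6 libraries. Their part in the interferon result was not tested. For antigen presentation, 16 of 21 genes were higher with a median of 0.18, but 1 was higher and 1 lower at an unadjusted p under 0.05. B2m, the light chain of class I molecules, was at 79.9, 64.5 and 62 FPKM in HFD-AOS, against 52.1, 61.8 and 46.1 in HFD without overlap. Tap2, the peptide transporter, was at 1.71, 2.14 and 2.68 FPKM in HFD-AOS, against 1.01, 0.68 and 1.57 in HFD, and H2-DMa, of class II loading, was at 6.89, 5.75 and 5.86 FPKM in HFD-AOS, against 6.68, 7.37 and 7.87 in HFD. In the inflammation and endotoxin list 1 of 18 genes was higher, Ly96 at 2.9, 2.08 and 1.54 FPKM in HFD-AOS, against 1.49, 1.09 and 1.61 in HFD, and 1 lower, Lcn2, lipocalin 2, at 431, 265 and 278 FPKM in HFD-AOS, against 522, 389 and 415 in HFD. Such counts lay near the shares over all genes.

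Of 38 elongating spermatid genes, 11 were higher and 1 lower at an unadjusted p under 0.05, beside 4.89% and 7.81% of all genes, and 3 were higher without overlap. Prm3, a protamine-related gene, was at 965, 765 and 909 FPKM in HFD-AOS, against 654, 497 and 694 in HFD (log2 fold change 0.52, SE 0.13, limma adjusted p = 0.215). Prm2, protamine 2, which packs sperm DNA, was at 17364, 13523 and 15339.5 FPKM in HFD-AOS, against 13045, 10676 and 12920.1 in HFD (log2 fold change 0.33, SE 0.1, limma adjusted p = 0.245). Meig1, needed in mice to build the sperm tail, was at 2860.2, 2629 and 2631 FPKM in HFD-AOS, against 2479.9, 2225 and 2307 in HFD (log2 fold change 0.21, SE 0.052, limma adjusted p = 0.215). HFD 2 was the lowest of the 6 in all 3. Prm1, protamine 1, overlapped at 17895, 14753 and 15539.8 FPKM in HFD-AOS, against 14772, 10536 and 15091 in HFD. The summed level of the 38 genes was 81900 to 92500 FPKM in HFD-AOS and 66700 to 81500 FPKM in HFD, where the low end is HFD 2. The count of 11 was 3 without HFD 2, 4 without HFD-AOS 1, 2 without both (with 3 lower), 3 with array weights, with quantile normalization or with the 6 libraries alone, and 7 with no filter on low values or with length and GC removed. Quantile normalization turned the list median of 0.033 to -0.022. Of 37 round spermatid genes 5 were higher and 2 lower at that p, with a median of -0.002. The 5 became 11 without HFD-AOS 3, 3 without HFD-AOS 1, HFD 2 or HFD 3, 2 without both HFD-AOS 1 and HFD 2 and 1 with the 6 libraries alone, and the 2 became 6 without HFD-AOS 2. Examples were Spink2, an acrosomal protease inhibitor, at 1382, 1065 and 1048 FPKM in HFD-AOS, against 1003, 875 and 969 in HFD and Tssk3, a testis kinase, at 194, 204 and 219 FPKM in HFD-AOS, against 187, 185 and 189 in HFD.

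Of 40 meiotic spermatocyte genes 2 were higher and 7 lower at an unadjusted p under 0.05, beside 4.89% and 7.81% of all genes. Their median of -0.044 was -0.0066 with length and GC removed. Meioc was at 35.2, 37.2 and 32.2 FPKM in HFD-AOS, against 38.9, 42.1 and 38.8 in HFD (log2 fold change -0.19, SE 0.055, limma adjusted p = 0.227) and Ythdc2 at 5.22, 5.9 and 5.39 FPKM in HFD-AOS, against 6.19, 6.71 and 7.12 in HFD (log2 fold change -0.24, SE 0.061, limma adjusted p = 0.215); in mice these partners keep germ cells in meiotic prophase. Hormad1, a chromosome axis protein, was at 75.4, 84.3 and 76.4 FPKM in HFD-AOS, against 85.4, 93.7 and 84.5 in HFD. HFD 2 was the highest library for Meioc and Hormad1, and the count of 7 ranged from 2 to 11 when 1 library was left out, with 2 without HFD 2 or without HFD-AOS 3, 11 without HFD-AOS 2 and 4 without both HFD-AOS 1 and HFD 2. Spermatogonial genes had 9 of 17 above and 8 below HFD with a median of 0.0062, and at that p 0 were higher and 2 lower. These were Id4, which marks stem cells in mouse, at 16.7, 19 and 16.6 FPKM in HFD-AOS, against 20.0, 21.2 and 19.1 in HFD and Dazl at 38.1, 45.3 and 41.8 FPKM in HFD-AOS, against 44.5, 51.6 and 44.1 in HFD. That count of 2 was 3 without HFD 1 and 1 with length and GC removed. It was 0 with array weights and without HFD-AOS 1, HFD-AOS 3, HFD 2 or both HFD-AOS 1 and HFD 2. Top2a, the topoisomerase of dividing cells, was at 27.9, 29.5 and 29.9 FPKM in HFD-AOS, against 31.5, 35.1 and 34 in HFD (log2 fold change -0.20, SE 0.052, limma adjusted p = 0.215), and was 1 of 3 lower among 33 cell cycle genes.

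Short and GC-rich transcripts leaned higher in HFD-AOS. Over 12851 genes with a length, the log2 fold change had a Spearman rho of 0.303 with GC share and -0.117 with transcript length. In 5 equal groups of genes by GC share, from the lowest share to the highest, the median log2 fold change was -0.064, -0.041, -0.021, 0.0096 and 0.034. Genes with an unadjusted p under 0.05 that were higher in HFD-AOS had a median GC share of 54.6% and a median length of 928 bases, and those lower had 46.1% and 1520 bases. Library by library the deviation from the mean had a rho with GC of 0.133, -0.115 and 0.27 in HFD-AOS and of -0.0378, -0.364 and -0.114 in HFD. HFD 2 was thus the farthest of the 6, and without it the rho of the fold change was 0.19. With length and GC trends removed, 698 genes were higher and 616 lower at an unadjusted p under 0.05. The part of GC share in any list was not tested beyond that fit.

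**Figure D3:**
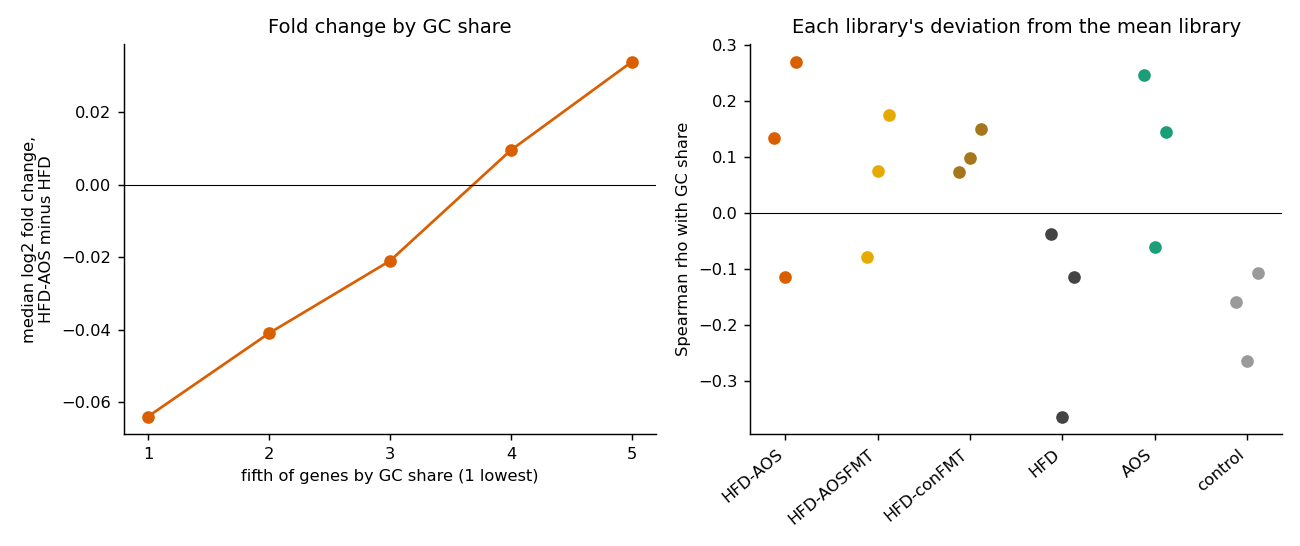
Left, median log2 fold change of HFD-AOS minus HFD (vertical) for 5 equal groups of genes by GC share (horizontal); right, Spearman rho across genes between GC share and each library's deviation from the mean library, by group. The medians run from -0.064 to 0.034, and 2 HFD-AOS libraries lie above 0 while all 3 HFD libraries lie below it.

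Ribosomal protein and respiratory chain genes have short transcripts, and part of them were higher. Of 83 ribosomal protein genes 19 were higher and 0 lower at an unadjusted p under 0.05, beside 4.89% and 7.81% of all genes. For 13, all higher, the groups had no overlap, beside 4.9% of all genes, and the median was 0.058. The 85 listed genes summed to 23660, 24940 and 24490 FPKM in HFD-AOS, against 23760, 21910 and 22580 in HFD. HFD-AOS 1 thus lay below HFD 1. In HFD-conFMT, without direct AOS, the sums of 25030, 26050 and 25820 FPKM were above every HFD-AOS library. Rpl27 was at 146, 154 and 169 FPKM in HFD-AOS, against 122, 135 and 133 in HFD (log2 fold change 0.26, SE 0.067, limma adjusted p = 0.215) and Rpl11 at 415, 327 and 366 FPKM in HFD-AOS, against 324, 278 and 312 in HFD (log2 fold change 0.27, SE 0.075, limma adjusted p = 0.219). Ribosomal proteins have many processed copies in the genome, which makes it uncertain how their reads were divided. The count of 19 was 11 without HFD 2, 18 without both HFD-AOS 1 and HFD 2, and 18 with length and GC removed. Of 83 nuclear genes of oxidative phosphorylation 9 were higher and 1 lower, beside the same shares of all genes. The 85 listed summed to 10010, 10710 and 10540 FPKM in HFD-AOS, against 10280, 9638 and 9893 in HFD. In HFD-conFMT they summed to 10480, 11100 and 11140 FPKM. Ndufv3 was at 43.5, 38.5 and 49.5 FPKM in HFD-AOS, against 35.2, 36.5 and 36.2 in HFD and Ndufa5 at 114, 129 and 133 FPKM in HFD-AOS, against 109, 108 and 97.4 in HFD, both of complex I, while Ndufs1, of the same complex, was at 27, 27.6 and 27.9 FPKM in HFD-AOS, against 30.2, 32 and 28.7 in HFD. Without HFD-AOS 2 there were 5 lower. The count of 9 was 23 without HFD-AOS 1, 15 without HFD 1, 4 without HFD 2 and 15 without both HFD-AOS 1 and HFD 2. In those fits 4.76%, 5.04%, 3.37% and 3.79% of all genes were higher at that p.

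**Figure D4:**
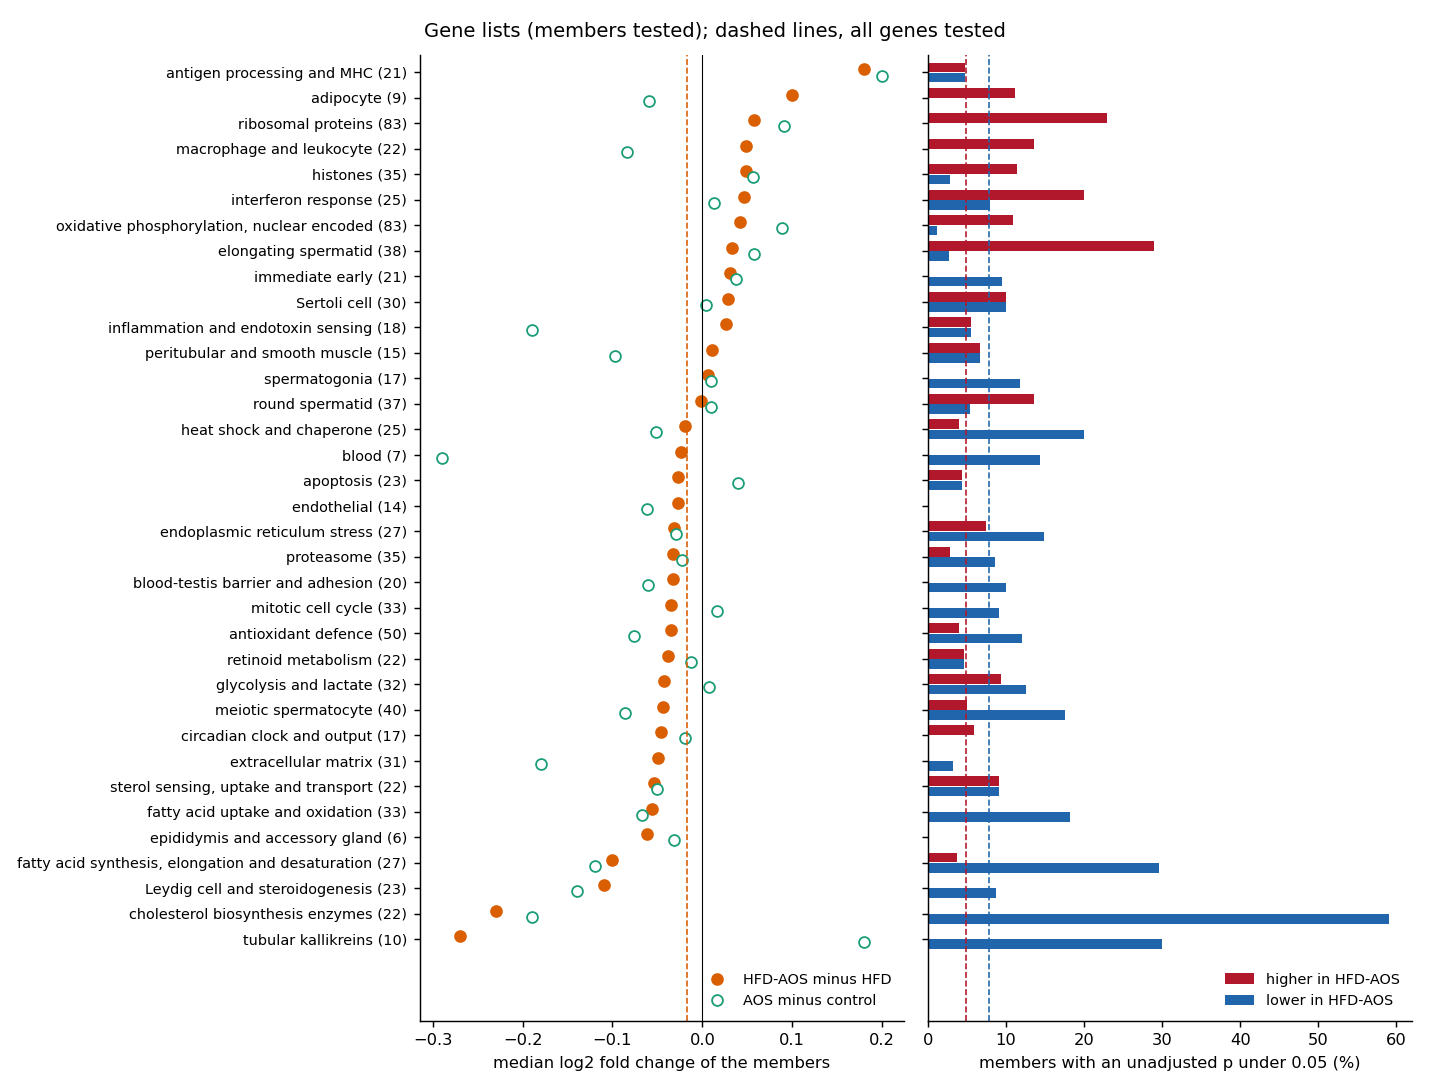
Gene lists, with the number of members tested in brackets. Left, median log2 fold change of the members for HFD-AOS minus HFD (filled) and AOS minus control (open); right, percent of members with an unadjusted p under 0.05, higher (red, upper bar) or lower (blue, lower bar) in HFD-AOS; dashed lines are the values over all genes tested. The cholesterol list has the longest bar, 13 of 22 lower.

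In antioxidant and stress lists single genes stood out. Mt2, metallothionein 2, was at 646, 526 and 536 FPKM in HFD-AOS, against 447, 449 and 462 in HFD (log2 fold change 0.32, SE 0.075, limma adjusted p = 0.215). Gpx1, glutathione peroxidase 1, was at 18.3, 16.6 and 21.1 FPKM in HFD-AOS, against 26.1, 23.6 and 22.8 in HFD (log2 fold change -0.36, SE 0.1, limma adjusted p = 0.227). Hmox1, heme oxygenase 1, was at 7.21, 8.07 and 8.18 FPKM in HFD-AOS, against 8.52, 9.43 and 10.9 in HFD. Thus Mt2 lay above and the other 2 below HFD without overlap. Of the 50 antioxidant genes tested 2 were higher and 6 lower at an unadjusted p under 0.05, beside 4.89% and 7.81% of all genes. Those 6 became 10 without HFD-AOS 3 and 1 without both HFD-AOS 1 and HFD 2. Among 25 heat shock and chaperone genes 1 was higher and 5 lower, with Hsp90aa1 at 635, 663 and 635 FPKM in HFD-AOS, against 701, 790.4 and 702 in HFD and Hspa8 at 116, 123 and 116 FPKM in HFD-AOS, against 128, 139 and 125 in HFD. That count of 5 was 2 without HFD-AOS 3, 3 without HFD 2 or HFD 3, 1 without both HFD-AOS 1 and HFD 2 or with the 6 libraries alone, 2 with array weights or with length and GC removed, and 3 after rescaling to a common median log ratio. The pro-apoptotic Bcl2l11, Bim, was at 1.48, 1.4 and 1.59 FPKM in HFD-AOS, against 2.28, 1.99 and 1.88 in HFD (log2 fold change -0.29, SE 0.08, limma adjusted p = 0.219), and was 1 of 2 genes at that p among 23 of apoptosis. Timp2, an inhibitor of matrix metalloproteinases, was at 49.99, 47.9 and 46.4 FPKM in HFD-AOS, against 53.7, 62 and 57.1 in HFD (log2 fold change -0.25, SE 0.061, limma adjusted p = 0.215), the only 1 of 31 extracellular matrix genes with an unadjusted p under 0.05. Nr1d1, the clock repressor Rev-erb alpha, was at 12.6, 11.2 and 11.5 FPKM in HFD-AOS, against 10.3, 9.02 and 8.55 in HFD (log2 fold change 0.31, SE 0.071, limma adjusted p = 0.215), the only 1 of 17 clock genes. Of the Sertoli genes 3 of 30 were higher and 3 lower, among them Kitl, the ligand that spermatogonia need, at 2.68, 2.07 and 2.05 FPKM in HFD-AOS, against 3.05, 3.46 and 3.15 in HFD. Those Sertoli counts were 0 higher without HFD-AOS 3, 1 higher without HFD-AOS 2, 1 in each direction without HFD 2, and 0 lower without both HFD-AOS 1 and HFD 2. In the blood-testis barrier list 2 of 20 were lower, with Ocln, occludin, at 1.14, 1.09 and 1.24 FPKM in HFD-AOS, against 1.39, 1.47 and 1.51 in HFD. This barrier count of 2 was 5 without HFD 1. It was 0 without HFD-AOS 1, without HFD 2, without both, with array weights or with the 6 libraries alone. Endothelial genes had 0 of 14 in either direction, and blood genes had 1 of 7 lower. The shares over all genes, 4.89% higher and 7.81% lower, are the background for these counts too, apart from those of the alternatives.

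Whether AOS differed in its effect with and without the diet was tested as the difference of (HFD-AOS minus HFD) and (AOS minus control), which share no library. By limma 0 of 13105 genes (0.0%) passed, with a lowest adjusted p of 0.521, and 899 genes (6.86%) had an unadjusted p under 0.05. Genes of smallest p with opposite differences included Sh2d6, a signalling adaptor gene of tuft cells, at 18.4, 17.6 and 13.2 FPKM in HFD-AOS, against 12.2, 11.2 and 6.81 in HFD, but at 7.94, 13.3 and 12.5 FPKM in AOS, against 16.7, 22.6 and 21.1 in control. Adi1, of the methionine salvage pathway, was at 4.71, 5.29 and 5.18 FPKM in HFD-AOS, against 4.28, 4.44 and 3.5 in HFD, but at 3.24, 3.1 and 3.05 FPKM in AOS, against 5.58, 4.49 and 6.02 in control. Each thus lay above its counterpart on the diet and below it without the diet. Arg2, the mitochondrial arginase, was at 3.9, 4.71 and 3.34 FPKM in HFD-AOS, against 5.68, 7.02 and 6.27 in HFD, but at 5.86, 6.03 and 7.47 FPKM in AOS, against 4.93, 2.8 and 2.46 in control. Plcg2, a phospholipase of immune signalling, was at 2.95, 2.98 and 2.93 FPKM in HFD-AOS, against 3.41, 3.68 and 3.43 in HFD, but at 4.63, 3.78 and 3.73 FPKM in AOS, against 2.82, 3.29 and 2.78 in control. These lay below on the diet and above without it. The differences of differences were 1.48 for Sh2d6, 0.88 for Adi1, -1.36 for Arg2 and -0.53 for Plcg2 on the log2 scale. For Asb17, a testis ubiquitin ligase subunit, it was -0.27.

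Most genes leaned the same way in both settings. The sign of the log2 fold change was shared by 60.7% of genes, and across 13105 genes Spearman's rho was 0.243 and Pearson's r 0.179, where genes are not independent. Both comparisons also leaned the same way on GC share, with a rho of 0.303 on the diet and 0.278 without it, and after removal of length and GC trends the rho between them was 0.168. An unadjusted p under 0.05 in both with the same direction was found for 411 genes (3.14%), and with opposite directions for 40 (0.305%). AOS against control itself had 3 genes past the adjusted threshold (0.0229%) and 2071 genes (15.8%) at that p, 1340 of them lower (10.2%). Of the 22 sterol enzyme genes, 11 were lower in AOS at that p and 10 were lower in both. Msmo1, for example, was at 14.1, 15.3 and 12.8 FPKM in AOS, against 22.5, 20.6 and 24.7 in control, and Hmgcs1 was at 24.9, 26.7 and 27 FPKM in AOS, against 32.2, 32.1 and 36.1 in control. For 0 of the 22 did the AOS differences on and off the diet differ at an unadjusted p under 0.05, which does not show that they are equal. Star was at 30.1, 33 and 36.5 FPKM in AOS, against 37.6, 43.1 and 52.8 in control, with a log2 fold change of -0.40 there and -0.64 on the diet. Of the 25 interferon response genes, 0 had an unadjusted p under 0.05 in both with the same direction, and their median was 0.013 in AOS against control.

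**Figure D5:**
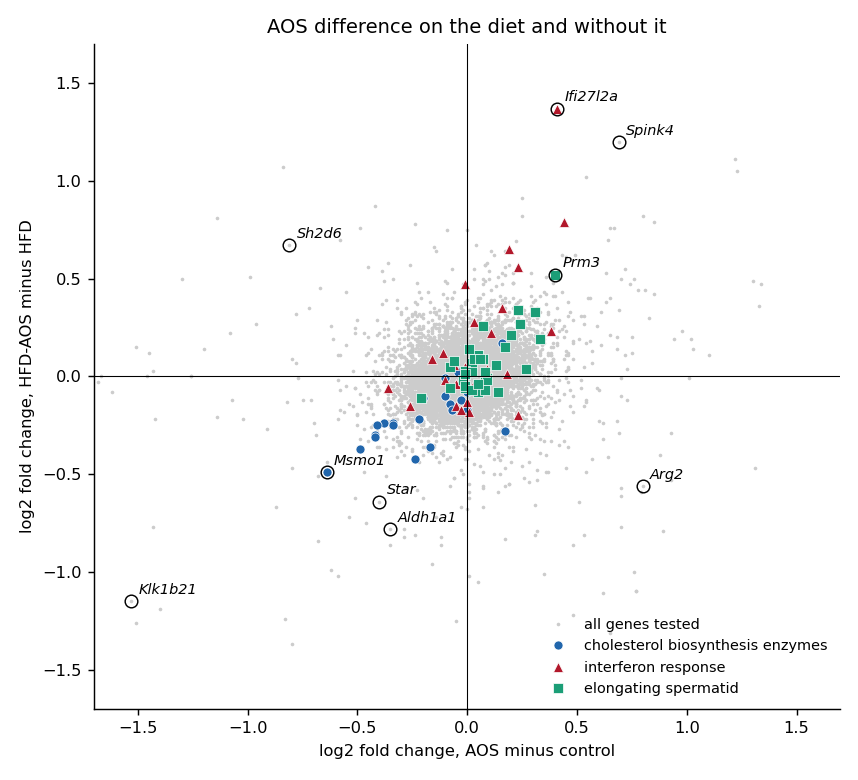
Log2 fold change of each gene for AOS minus control (horizontal) and HFD-AOS minus HFD (vertical); grey points are all genes tested, coloured symbols 3 lists, and ringed points are named. Sterol enzymes gather at lower left, as Msmo1 at -0.64 and -0.49; 11 genes fall outside the axes.

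Direct AOS and FMT labelled AOS, both on the diet, were set against each other to avoid the shared HFD libraries. By limma 1 of 13105 genes (0.00763%) passed the threshold and 1509 (11.5%) had an unadjusted p under 0.05. The gene that passed was Kap, kidney androgen-regulated protein, on chromosome 6 from 133849851 to 133853762 (mm10, minus strand). Kap was listed at 0 in all 3 HFD-AOS libraries, against 37.7, 31.5 and 36.3 FPKM in the HFD-AOSFMT libraries (limma adjusted p = 1.48e-16, a value that rests on groups listed at 0). It was at 0 in every library of the other groups but HFD 3, at 0.15 FPKM, and Kap is known for its high level in kidney. Kap thus met the filter only through the HFD-AOSFMT libraries, where it was high. The next lowest adjusted p was 0.263, and 61 genes passed without HFD-AOS 3. Among the genes of smallest p above HFD-AOSFMT, Gpr3, a receptor that in mice keeps oocytes in meiotic arrest, was at 2.08, 1.92 and 2.2 FPKM in HFD-AOS, against 1.12, 1.3 and 1.28 in HFD-AOSFMT. Cyp2f2, a cytochrome P450, was at 16.3, 11.6 and 12.2 FPKM in HFD-AOS, against 4.49, 9.91 and 4.01 in HFD-AOSFMT, and Trim62, a ubiquitin ligase, was at 4.18, 3.95 and 3.49 FPKM in HFD-AOS, against 2.64, 2.84 and 2.53 in HFD-AOSFMT. None of the 3 overlapped. Sterol enzymes were lower in HFD-AOS than in HFD-AOSFMT for 19 of 22 genes, with a median log2 fold change of -0.1, and 4 had an unadjusted p under 0.05, beside 7.19% of all genes lower at that p. Tm7sf2 was at 2.67, 3.62 and 3.07 FPKM in HFD-AOS, against 3.78, 4.36 and 3.98 in HFD-AOSFMT. Aldh1a1 was at 142, 162 and 211 FPKM in HFD-AOS, against 316, 241 and 253 in HFD-AOSFMT. Of the 83 oxidative phosphorylation genes 20 were lower in HFD-AOS and 0 higher at an unadjusted p under 0.05, beside 7.19% and 4.33% of all genes. The same 3 HFD-AOS libraries enter both contrasts, so this one gives no separate support for genes picked against HFD. Spink4 was at 18.2, 12.1 and 15.6 FPKM in HFD-AOS, against 6.6, 8.96 and 7.81 in HFD-AOSFMT.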

How the data were processed

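RNA of whole mouse testis was sequenced. Libraries followed a standard Illumina preparation of 1 ug of Trizol-extracted total RNA, per the labels' protocols. Reads were mapped with Bowtie 0.12.2 to mm10, per the submitters' processing notes, and the values were normalized by the authors to FPKM before they were deposited, as read from the values, since the header names no unit and library sums differ. What counted the reads, on which annotation and strand, is not given in the sources used here. In 1 table there are 20985 rows with 2 decimals. Each column name carries group letters and a number that match 1 sample title. The 6 rows with repeated symbols were left out, and 403 rows were at 0 throughout.

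The 13105 genes averaging 1 FPKM or more over 18 libraries were fitted as log2(FPKM + 1) with limma 3.58.1 in R 4.3.3, in 1 model of 6 groups with trended variance and 12 residual degrees of freedom, with Benjamini-Hochberg adjustment over genes, two-sided, at 0.05. The model was tested on simulated data with independent noise for each gene and library. Such data lack the GC trend and the outlying libraries seen here. In all, 43 genes met the filter only through the HFD-AOS and HFD libraries. Transcript length and GC share are medians over a gene's transcripts in GENCODE M21 (GRCm38, the mm10 assembly), present for 98.1% of genes tested. Promoters came from RefSeq. Figures used matplotlib 3.10.9.

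The comparison, the 35 gene lists and the naming rule were chosen with earlier results of these data known, and no p is given for a list. The rule took, in each direction, the 10 genes of smallest p among those without overlap that reached 2 FPKM in the mean of the higher group, up to 4 members of smallest p per list, and for the other contrasts up to 4 called genes or the 3 of smallest p; predicted and clone names were left out, and 3 genes are not reported here by name, though counted in their lists. Other genes named were chosen after their values were seen, among them Pmvk, Fdft1, Lss, Nsdhl, Mvd, Sc5d, Dhcr7, Srebf1, Srebf2, Fads2, Dgat1, Tecr, Fasn, Cyp11a1, Cyp17a1, Hsd3b1, Insl3, Irf7, Prm1 and Crisp1. Alternatives were other pseudocounts, filters and scalings, array weights, a replicate block, the 6 libraries alone, length and GC removed, and leaving out libraries.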

Additional observations from a re-analysis of the deposited data

How the results depend on the processing

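The read depth behind these FPKM values is unknown and each group has 3 libraries, which limits what can be told apart. Between HFD-AOS and HFD, limma gave 0 called genes and 1664 at an unadjusted p under 0.05; the called count was 2 with no filter on low values (Ccl21b higher, Olfr655 lower, both near 0 in a group) and 0 to 4 over the 18 fits that each left out 1 library, with 1 without HFD-AOS 1 and 4 without HFD-AOS 3. The count at an unadjusted p under 0.05 was 974 with array weights, 862 with the 6 libraries alone, 1011 without both HFD-AOS 1 and HFD 2, an alternative chosen after seeing the data, and 976 to 2007 with 1 library left out, the lowest without HFD 2. The split of 641 higher and 1023 lower became 846 and 725 after rescaling to a common median log ratio, 683 and 892 after quantile normalization, and 698 and 616 with length and GC removed. The difference of the AOS effects had 0 called genes under every alternative run. HFD-AOS against HFD-AOSFMT had 1 called gene, 14 with no filter on low values, 2 with the replicate block, and 1 to 61 with 1 library left out (61 without HFD-AOS 3, 2 without HFD-AOSFMT 2).

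Deviations of same-numbered libraries had correlations of -0.00826, 0.00718 and 0.0692, against -0.0757 to 0.0711 between differently numbered ones. These values show no pairing by number, but with 3 libraries a group they cannot exclude one. The replicate block gave 0 called genes between HFD-AOS and HFD and 1744 at an unadjusted p under 0.05. Among 106 named genes, 3 changed sign under any alternative. Insl3 had log2 fold changes of -0.42 to 0.07 with 1 library left out, Srebf1 0.05 without both HFD-AOS 1 and HFD 2, and Srebf2 -0.00 with array weights and -0.03 to 0.09 with 1 library left out. Tmem89, at 0.43, passed the threshold without HFD-AOS 3. The causes were not tested.

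Some list counts at an unadjusted p under 0.05 moved by over 1.5 times in other ways than those given above. The shares over all genes moved as well. They were 3.17% higher and 4.26% lower with array weights, and 2.93% and 3.65% with the 6 libraries alone. With length and GC removed they were 5.43% and 4.79%. Fatty acid oxidation, 6 lower, had 2 with array weights and 3 with the 6 libraries alone. The interferon list, 5 higher, had 3 with array weights or a filter at 5 FPKM, and the macrophage list, 3 higher, had 1 with array weights, with length and GC removed, or without HFD-AOS 1, HFD 1 or HFD 3. Ribosomal protein genes, 19 higher, had 12 with the 6 libraries alone. Sertoli genes, 3 in each direction, had 0 higher and 1 lower with the 6 libraries alone and 1 lower with array weights. Meiotic genes, 7 lower, had 2 with array weights or the 6 libraries alone and 4 with length and GC removed.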
